A study of Homo sapiens with 27 samples.

Results

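The genes described here encode the parts of the desmosome. They are the plaque proteins DSP, JUP, PKP1, PKP2 and PKP3, the cadherins DSG2, DSG3, DSC2 and DSC3, and the membrane protein PERP. The rows were chosen by Entrez ID from a gene count table of the series, and the 10 genes took 10 of its 24566 rows, 1 row each. The libraries came from 2 established human lines, A431, an epidermoid carcinoma line, and MDA-MB-231, a breast adenocarcinoma line, each of which stands for 1 line only. Total RNA was sequenced after 48 h in 27 libraries, which fell into 9 groups of 3. The A431 groups were untreated cells, vehicle control, CKI alone, doxorubicin alone, and both drugs (CKI plus doxorubicin), and the MDA-MB-231 groups were untreated cells, CKI alone, 5-FU alone at 10 µg/ml, and both (CKI plus 5-FU). CKI was used at 1 mg/ml in both lines. CKI (Compound Kushen Injection) is an extract of medicinal plant roots, 5-FU an antimetabolite that disturbs thymidylate synthesis, and doxorubicin an anthracycline that poisons topoisomerase II. What the vehicle control contained, and which dose of doxorubicin was used, is not given for each group in the sources used here.

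Desmosomes are spot junctions that tie the intermediate filaments of neighbouring epithelial cells together. The desmogleins and desmocollins are calcium-dependent cadherins that meet in the gap between cells. Inside the cell their tails bind plakoglobin (JUP) and the plakophilins (PKP1 to PKP3), which in turn bind desmoplakin (DSP), the large linker that holds keratin or vimentin filaments. PERP is a tetraspan protein of the desmosome and a transcriptional target of p53 and p63. DSG3, DSC3 and PKP1 belong mainly to stratified epithelium, whereas DSG2, DSC2, PKP2 and DSP also occur in simple epithelium. Loss of epithelial junctions is a known feature of mesenchymal-like carcinoma lines.

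Total counts ran from 17757206 to 22809339 per library, and a count of 0 in a library allowed a level of at most 0.132 to 0.169 CPM (counts scaled to the library total). The labels do not say whether replicates were separate cultures, so that p-values measure the spread between these libraries, which may be technical. Untreated MDA-MB-231 replicate 1 stood apart from the other 2 replicates of its group, with a chi-square per degree of freedom of 70.8 and 81.8 against 2.65 between those 2. The 3 vehicle control libraries of A431 also spread, at 9.90 to 28.3, and the other pairs of replicates in the series gave 1.83 to 5.46. The 7 squamous epithelial markers summed to between 6330 and 8070 CPM in the A431 libraries and to between 171 and 379 CPM in MDA-MB-231. Most of the sum in MDA-MB-231 was EGFR, with group means from 161 to 360 CPM. In untreated MDA-MB-231 cells KRT5, KRT14 and KRT17 stood at 0.0831, 0.12 and 0.246 CPM. The 6 mesenchymal markers summed to between 1470 and 1640 CPM in untreated A431 and to between 3920 and 4470 CPM in untreated MDA-MB-231. Among these, VIM stood at 7.29 and 1760 CPM and ZEB1 at 0.478 and 65.9 CPM, whereas CAV1, at 740 and 663 CPM, and CD44, at 702 and 756 CPM, overlapped between the lines. Leukocyte markers summed to at most 16.4 CPM, endothelial markers to at most 47 CPM and fibroblast markers to at most 62.6 CPM in any library. In bulk libraries, fewer cells of a type and less RNA per cell cannot be told apart.

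In the text, a gene rose, fell or changed where its Benjamini-Hochberg adjusted p-value in edgeR's quasi-likelihood test was under 0.05 and its log2 fold change was over 1 in size. Levels within a line are given in CPM after TMM scaling, as mean ± SD of 3 libraries, and log2 fold changes as value ± SE. Where levels of different genes are compared, CPM was divided by the kilobases of all annotated exons of the gene (RPKM).

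The first comparison asked how the 2 lines differed before treatment. Of the 10 desmosome genes, 8 were higher in untreated A431 than in untreated MDA-MB-231 and none was lower, where 22.5% of all 14848 genes tested were higher and 20.4% lower. On the adjusted p-value alone 9 of the 10 differed, beside 78.6% of all genes. The genes fell into 3 patterns. DSC3, DSG3 and PKP1 were abundant in A431 and at or next to 0 in MDA-MB-231, JUP, PKP3, PERP, DSC2 and DSG2 were present in both lines and higher in A431, and DSP and PKP2 did not pass both thresholds.

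DSC3 (desmocollin 3, Entrez ID 1825) is on the reverse strand of chromosome 18, positions 28569331 to 28622781 of GRCh37, the build of all gene positions given. It had 162, 173 and 183 CPM in the 3 untreated A431 libraries and 0 counts in each untreated MDA-MB-231 library. Against a floor of 3 counts over the MDA-MB-231 group, it was at least 3314-fold higher in A431 (adjusted p = 4.9e-14). DSG3 (desmoglein 3, Entrez ID 1830, chromosome 18 from 29027704 to 29058665, forward strand) had 122, 128 and 135 CPM in A431 and again 0 counts in each untreated MDA-MB-231 library, and was at least 2463-fold higher (adjusted p = 1.1e-13). PKP1 (plakophilin 1, Entrez ID 5317, chromosome 1 from 201252580 to 201302121, forward strand) had 277 to 311 CPM in A431 and 1, 0 and 1 counts in MDA-MB-231. The ratio of its summed counts per total was 8343, with a 95% counting interval from 2309 to 6.89e+04 that covers counting error only (adjusted p = 1.5e-13).

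These 3 genes stayed near 0 in MDA-MB-231 under every treatment. DSC3 had 1 count in each CKI library, 0 to 2 counts under 5-FU and 1 to 4 counts under CKI plus 5-FU. DSG3 had 0 to 6 counts per library over the 3 treated groups, the 6 being in 5-FU replicate 1. PKP1 had 13, 7 and 1 counts in the 3 libraries under 5-FU and 0 counts in the 6 libraries with CKI, alone or with 5-FU. None of the 3 passed the filter on low counts in the MDA-MB-231 fit, so that 7 of the 10 genes were tested there.

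Among the genes found in both lines, JUP (plakoglobin, Entrez ID 3728, chromosome 17 from 39910856 to 39943183, reverse strand) differed most. Its level was 1500 ± 129 CPM in untreated A431 and 89.3 ± 33 CPM in untreated MDA-MB-231, a log2 difference of 4.14 ± 0.22 (adjusted p = 1.2e-09). The single MDA-MB-231 libraries had 51.3, 106 and 111 CPM, the lowest being replicate 1, and all lay far under the lowest A431 library at 1375 CPM. PKP3 (plakophilin 3, Entrez ID 11187, chromosome 11 from 392614 to 404908, forward strand) had 473, 430.7 and 490 CPM in A431 and 23.5, 47.4 and 46.2 CPM in MDA-MB-231, with a log2 difference of 3.64 ± 0.20 (adjusted p = 1.7e-09). For PKP3 too, MDA-MB-231 replicate 1 was the low one, and without it the differences were 3.86 for JUP and 3.38 for PKP3.

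PERP (Entrez ID 64065, chromosome 6 from 138409642 to 138428556, reverse strand) had 472 ± 20.4 CPM in A431 and 95.0 ± 14.6 CPM in MDA-MB-231, a log2 difference of 2.37 ± 0.10 (adjusted p = 8.7e-11). DSC2 (desmocollin 2, Entrez ID 1824, chromosome 18 from 28638806 to 28682485, reverse strand) had 43.2, 48.4 and 48.5 CPM against 9.11, 10.4 and 9.33 CPM, a log2 difference of 2.34 ± 0.08 (adjusted p = 8.7e-12). DSG2 (desmoglein 2, Entrez ID 1829, chromosome 18 from 29078140 to 29128971, forward strand) had 382 to 432 CPM against 162 to 177 CPM, a log2 difference of 1.33 ± 0.07 (adjusted p = 8.6e-10). The 2 lines did not overlap in any of these genes, as in 77% of all genes tested.

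DSP (desmoplakin, Entrez ID 1832, chromosome 6 from 7541571 to 7586947, forward strand) was the exception. It had 235, 239 and 252 CPM in untreated A431 and 207, 250 and 267 CPM in untreated MDA-MB-231. The lines overlapped, and the log2 difference of 0.06 ± 0.08 was not past the test (adjusted p = 0.48). Its sign turned under other scalings, as given below. PKP2 (plakophilin 2, Entrez ID 5318, chromosome 12 from 32943679 to 33049732, reverse strand) had 51.3 ± 3.24 CPM in A431 and 33.6 ± 2.83 CPM in MDA-MB-231. Its log2 difference of 0.67 ± 0.08 passed the adjusted p-value alone (4.1e-06).

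**Figure D1:**
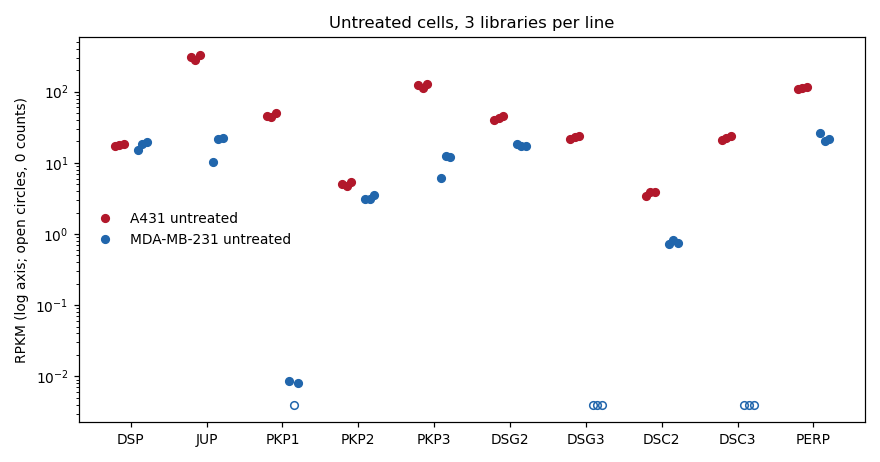
Levels of the 10 desmosome genes in the 6 untreated libraries, in RPKM on a log axis, with A431 in red and MDA-MB-231 in blue and 1 point per library. Open circles stand for 0 counts and are drawn at the foot of the axis. The points of both lines lie together for DSP, at 17.8 and 17.7 RPKM on average, and farthest apart for DSG3, DSC3 and PKP1.

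Per kilobase of exon, the order of levels also differed between the lines. In untreated A431 JUP stood first at 304 ± 26.1 RPKM, followed by PKP3 at 122 ± 8.10 and PERP at 113 ± 4.85, which did not differ beyond their spread. PKP1 at 46.7 ± 2.93 and DSG2 at 42.7 ± 2.63 were next, then DSG3 at 23 ± 1.16 and DSC3 at 22.4 ± 1.37, which lay within each other's spread, and DSP at 17.8 ± 0.65. PKP2 at 4.99 ± 0.32 and DSC2 at 3.74 ± 0.24 were lowest. In untreated MDA-MB-231 PERP at 22.6 ± 3.49, JUP at 18.1 ± 6.68, DSP at 17.7 ± 2.25 and DSG2 at 17.6 ± 0.89 came first, then PKP3 at 10.3 ± 3.55, PKP2 at 3.26 ± 0.28 and DSC2 at 0.77 ± 0.06. The PERP libraries lay above all DSP and DSG2 libraries, which overlapped each other, and JUP, with 10.4, 21.4 and 22.4 RPKM, overlapped PERP, DSP, DSG2 and also PKP3. The order depends on the length used. With the canonical transcript in place of all exons, DSG2 had 71.1 RPKM in A431 and PKP1 had 54.5. In MDA-MB-231 DSG2 then stood at 29.4 RPKM, JUP at 25.5, DSP at 24.9 and PERP at 22.6.

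Other junction genes were set beside the members. Of the other desmosomal and desmosome-associated genes, 3 could be tested, and none was higher or lower. Of 10 tight junction genes tested, 8 were higher in A431 and none lower, among them CLDN1, with 216 against 4.11 CPM, and F11R, with 203 against 19.7 CPM. Of 15 epithelial and mesenchymal transcription factors, 9 were higher and 3 lower, with TP63, a regulator of squamous epithelium, at 228 CPM in A431 and 0.776 CPM in MDA-MB-231. Of 11 adherens junction genes 5 were higher and 3 lower, of 11 plakins and hemidesmosome genes 6 and 1, and of 8 filament partners 4 and 2. CDH1 (E-cadherin) stood at 377 against 1.83 CPM, and KRT5, a basal keratin, at 3590 against 0.0831 CPM. The median log2 difference was 3.00 over the 10 desmosome genes, also with DSC3, DSG3 and PKP1 set to their bounds, and 2.34 over the 7 others, beside 0.09 over all genes tested.

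The members at or near 0 in MDA-MB-231 and those present there can be set beside their start sites. The RefSeq promoters of GRCh38.p14, from 250 bases before to 50 bases after each start, matched 8 of the 10 genes, PKP2 and PKP3 being without an entry, and DSC2 and JUP had 2 starts each. The E-box CACCTG and its reverse complement CAGGTG, letters that the mesenchymal repressors ZEB1, SNAI1 and SNAI2 are known to bind, were searched on both strands, and 20.6% of all 35116 promoters held at least 1. They were found in 4 members, namely 2 in DSP, 2 in DSG2, 1 at a start of DSC2 and 2 at a start of JUP, and at no start of DSC3, DSG3, PKP1 or PERP. The other start of DSC2 and that of JUP held none. The members are thus counted by gene, whereas the share of all promoters is counted by start. The motif TATAAA, read on either strand, was in 11.5% of all promoters and in none of the members. The promoters of DSP, DSG2 and DSC2, which were present in MDA-MB-231, and those of DSC3, DSG3 and PKP1, which were at or next to 0 there, are shown in 5′ to 3′ order with E-boxes in capitals.
DSP, chr6:7541421-7541720, forward strand: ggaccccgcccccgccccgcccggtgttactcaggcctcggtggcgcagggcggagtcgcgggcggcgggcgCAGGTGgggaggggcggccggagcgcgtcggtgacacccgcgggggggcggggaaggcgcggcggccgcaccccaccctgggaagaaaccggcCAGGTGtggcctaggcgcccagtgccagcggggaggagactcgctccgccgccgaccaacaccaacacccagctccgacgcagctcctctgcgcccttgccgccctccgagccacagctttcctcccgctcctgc
DSG2, chr18:31497927-31498226, forward strand: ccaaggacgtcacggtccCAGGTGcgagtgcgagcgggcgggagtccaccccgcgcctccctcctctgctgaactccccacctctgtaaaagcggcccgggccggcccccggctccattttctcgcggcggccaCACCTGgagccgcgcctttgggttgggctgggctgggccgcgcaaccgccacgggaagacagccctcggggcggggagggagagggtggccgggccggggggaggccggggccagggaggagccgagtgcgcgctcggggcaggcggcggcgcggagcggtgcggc
DSC2, chr18:31102372-31102671, reverse strand: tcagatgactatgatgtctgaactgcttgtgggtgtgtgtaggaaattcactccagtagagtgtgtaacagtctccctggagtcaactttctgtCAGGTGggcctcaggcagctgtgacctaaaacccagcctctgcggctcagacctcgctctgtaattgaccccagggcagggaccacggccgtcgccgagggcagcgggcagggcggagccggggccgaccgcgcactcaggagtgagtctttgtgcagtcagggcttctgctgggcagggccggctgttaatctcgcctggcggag
DSC3, chr18:31042693-31042992, reverse strand: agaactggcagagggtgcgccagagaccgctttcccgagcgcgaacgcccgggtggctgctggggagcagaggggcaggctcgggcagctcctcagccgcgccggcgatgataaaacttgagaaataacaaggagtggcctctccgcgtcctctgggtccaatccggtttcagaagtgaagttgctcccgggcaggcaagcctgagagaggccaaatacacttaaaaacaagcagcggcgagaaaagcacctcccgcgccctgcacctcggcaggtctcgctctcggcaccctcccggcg
DSG3, chr18:31447491-31447790, forward strand: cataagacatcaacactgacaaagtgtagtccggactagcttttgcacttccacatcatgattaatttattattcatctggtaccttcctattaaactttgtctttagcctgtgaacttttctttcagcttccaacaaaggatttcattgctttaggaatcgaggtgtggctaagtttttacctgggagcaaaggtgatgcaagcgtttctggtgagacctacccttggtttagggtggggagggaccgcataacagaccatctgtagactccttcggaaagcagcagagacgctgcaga
PKP1, chr1:201283256-201283555, forward strand: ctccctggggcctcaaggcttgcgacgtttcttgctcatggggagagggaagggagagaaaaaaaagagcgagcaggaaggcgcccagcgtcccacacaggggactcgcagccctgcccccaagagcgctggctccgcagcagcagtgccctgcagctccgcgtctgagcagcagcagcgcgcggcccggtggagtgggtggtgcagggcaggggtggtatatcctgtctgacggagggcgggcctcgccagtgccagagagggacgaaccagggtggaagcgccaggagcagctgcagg

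The DSP and DSG2 windows held 37 and 36 CG dinucleotides, against a median of 14 over all promoters, and the DSG3 window held 6. DSC3 and PKP1 held 25 and 19, and the 2 starts of DSC2 held 15 and 22. The largest number among the members was the 43 of PERP. A match of letters is a description only, and binding at these starts was not measured.

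The 4 cadherin members are neighbours. DSC3, DSC2, DSG3 and DSG2 lie in this order along chromosome 18 in a cluster of 7 cadherin genes that spans 560 kb of GRCh37, with DSC1, DSG1 and DSG4 between DSC2 and DSG3. In untreated MDA-MB-231 the first and the third of these members had 0 counts in every library, while DSC2 and DSG2, the other two, had at least 172 and 3252 counts per library.

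**Figure D2:**
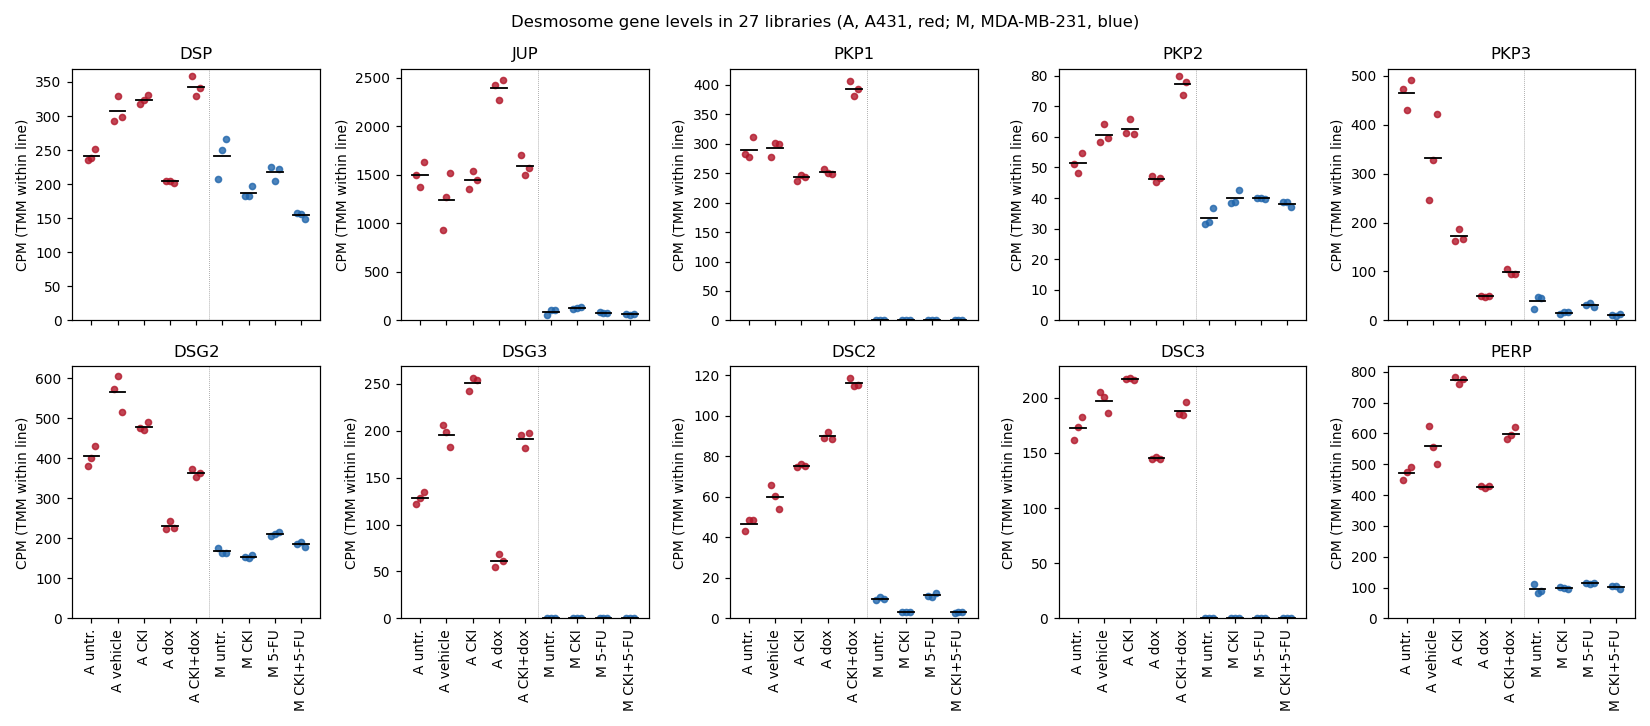
Level of each desmosome gene in each of the 27 libraries, in CPM after TMM scaling within a line. A431 is in red and MDA-MB-231 in blue, a point is a library, and a black bar is the mean of 3. PKP3 goes down in every treated A431 group, DSC2 goes up in A431 and down in the MDA-MB-231 groups with CKI, and within A431 DSG3 is lowest under doxorubicin alone.

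The vehicle control of A431 was set against untreated A431 first, as the background of the treatments. None of the 10 genes passed both thresholds in edgeR or in DESeq2, where 1.05% of 15881 genes were higher and 1.5% lower. Without the limit on size 9 of 10 differed, 7 with a higher and 2 with a lower level, beside 42.5% of all genes. At an unadjusted p-value under 0.05 it was also 9 of 10, beside 7835 of the 15881 genes. The largest differences were 0.61 ± 0.07 for DSG3, -0.48 ± 0.11 for PKP3 and 0.48 ± 0.06 for DSG2. PKP3 had 247, 327 and 422 CPM in the 3 vehicle libraries, all under the 430.7 to 490 CPM of untreated cells, and JUP had 937, 1271 and 1516 CPM and overlapped them. The differences of all genes between vehicle and untreated libraries went with GC content, with a Spearman rho of -0.58 over genes, and JUP and PKP3 are GC rich, with 61.5% and 66.7%. With offsets for GC content and length the values were 0.04 for JUP, 0.06 for PKP3 and 0.39 for DSG3.

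CKI alone was compared with untreated A431. PKP3 fell, and no desmosome gene rose, where 12% of all genes rose and 10.4% fell. With no limit on fold change 9 of 10 differed, beside 67% of all genes. PKP3 had 162, 187 and 167 CPM under CKI against 473, 430.7 and 490 CPM in untreated cells. The groups were far apart, and the log2 fold change was -1.44 ± 0.12 (adjusted p = 1.6e-10). With GC and length offsets it was -1.14, but against the vehicle control it was -0.95, which is within the limit of 1.

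The cadherins and PERP lay higher under CKI without passing both thresholds. DSG3 had 242, 256 and 255 CPM against 122, 128 and 135 CPM, a log2 fold change of 0.97 ± 0.07 (adjusted p = 2.5e-11) that fell just short of the limit on size and passed it with library size alone, at 1.08, and without untreated replicate 3, at 1.00. PERP had 760 to 782 CPM against 450 to 491 CPM, at 0.71 ± 0.06 (adjusted p = 7.2e-10). DSC2 had 75.5 ± 0.87 CPM against 46.7 ± 3.01 CPM, at 0.69 ± 0.07 (adjusted p = 3.4e-09). DSP at 0.42 ± 0.06, DSC3 at 0.33 ± 0.06, PKP2 at 0.29 ± 0.06 and DSG2 at 0.24 ± 0.06 followed, PKP1 was at -0.26 ± 0.06, and JUP at -0.05 ± 0.11 was not past the test (adjusted p = 0.68). Against the vehicle control DSG3 was at 0.36, PERP at 0.46 and DSC2 at 0.33, and DSG2 turned to -0.24. DSP, at 0.076, and PKP2, at 0.042, were then not past the test (adjusted p = 0.23 and 0.57).

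In the same comparison 3 of 10 tight junction genes rose and none fell, led by CLDN4, a claudin, from 309 to 1420 CPM (log2 fold change 2.20 ± 0.07, adjusted p = 7e-18). CLDN4 also rose in the vehicle control, to 647 CPM. Of 15 transcription factors 3 rose, KLF4, OVOL1 and SNAI1, of 11 adherens junction genes 2 rose, of 11 plakins and hemidesmosome genes none changed, and of 8 filament partners 1 rose and 1 fell.

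Under doxorubicin alone the desmosome genes lay on both sides of untreated A431. PKP3 and DSG3 fell and none rose, where 23% of all genes rose and 14.3% fell. All 10 differed by the adjusted p-value alone, beside 80.6% of all genes, and the 3 doxorubicin libraries did not overlap the untreated ones for any of the 10, which was also so for 82.4% of all genes. PKP3 had 49.9, 48.5 and 50.7 CPM, with a log2 fold change of -3.23 ± 0.13 (adjusted p = 2.8e-16), and this was the largest change of a member within either line. Against the vehicle control it was -2.74. DSG3 had 54.5, 68.5 and 60.9 CPM, at -1.06 ± 0.07 (adjusted p = 6.3e-12). DSG3 was near the limit. It was within it at -0.98 under DESeq2, -0.72 with library size alone and -0.996 without doxorubicin replicate 1, and past it at -1.24 with GC and length offsets and -1.675 against the vehicle control.

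JUP and DSC2 lay on the other side, above untreated cells, without passing both thresholds. JUP had 2430, 2276 and 2474 CPM against 1500, 1375 and 1633 CPM in untreated cells, a log2 fold change of 0.67 ± 0.11 (adjusted p = 5.4e-06). DSC2 had 89.2, 91.8 and 88.7 CPM against 43.2 to 48.5 CPM, at 0.94 ± 0.07 (adjusted p = 1.1e-11), and passed the limit at 1.03 under DESeq2. DSG2 had 231 ± 10.9 CPM against 405 ± 25 CPM, at -0.81 ± 0.06, and against the vehicle control it passed both thresholds at -1.29. DSC3 at -0.25, DSP at -0.24, PKP1 at -0.20, PKP2 at -0.15 and PERP at -0.14 lay lower by small amounts, and all 5 turned to small positive values when library size alone was used. The median of all genes was 0.36 under that scaling and 0.02 under TMM.

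The neighbours DSC1 and DSG1, cadherins of the upper layers of epidermis, and DSG4, a cadherin of the hair follicle, rose under doxorubicin from next to 0. DSG1 had 0, 0 and 1 counts in untreated A431 and 19, 20 and 23 counts under doxorubicin (adjusted p = 9.2e-07). DSC1 had 2, 0 and 3 counts against 15, 28 and 19 counts (adjusted p = 1.7e-05). DSG4, named after its values were seen, had 0 counts in all untreated libraries and 16, 9 and 11 counts under doxorubicin (adjusted p = 4.9e-05). These are low levels, at about 1 CPM, and the libraries carry no strand, so that reads from an annotated antisense gene that spans part of DSG1 and DSG4 cannot be told apart. PKP4, a plakophilin relative of other junctions, fell from 100 to 45.9 CPM (log2 fold change -1.13 ± 0.06, adjusted p = 5.7e-14). Of the 6 genes tested in this list 3 rose and 1 fell.

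Among the other junction genes under doxorubicin, 5 of 11 plakins and hemidesmosome genes fell and none rose. ITGB4, a hemidesmosome integrin, went from 1010 to 116 CPM (log2 fold change -3.12 ± 0.13, adjusted p = 8.3e-16), and ITGA6, its partner, from 535 to 180 CPM. Of 8 filament partners 4 rose and 1 fell, with KRT8 from 1560 to 4140 CPM and KRT5 from 3590 to 1650 CPM. Of 15 transcription factors 5 rose and 1 fell, the latter being TP63, from 228 to 50.2 CPM. Those that rose included GRHL3, an epithelial factor, from 19.9 to 61.1 CPM, and SNAI1, a mesenchymal one, from 4.01 to 21 CPM. Of 11 adherens junction genes 2 rose and 1 fell, with CDH1 from 377 to 916 CPM, and of 10 tight junction genes 1 rose. The summed squamous epithelial markers were 6330 to 6490 CPM under doxorubicin and 7130 to 7790 CPM in untreated cells. Of these 7 markers KRT14, KRT17 and CDH1 had higher mean levels under doxorubicin, with KRT17 at 182 and then 1060 CPM, and KRT5, TP63, EGFR and EPCAM had lower ones, with EGFR at 1990 and then 815 CPM. VIM, a mesenchymal marker, had 7.29 and then 34.6 CPM, whereas the 6 mesenchymal markers summed to 1470 to 1640 and then 822 to 869 CPM. The part of these markers in the results was not tested.

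**Figure D3:**
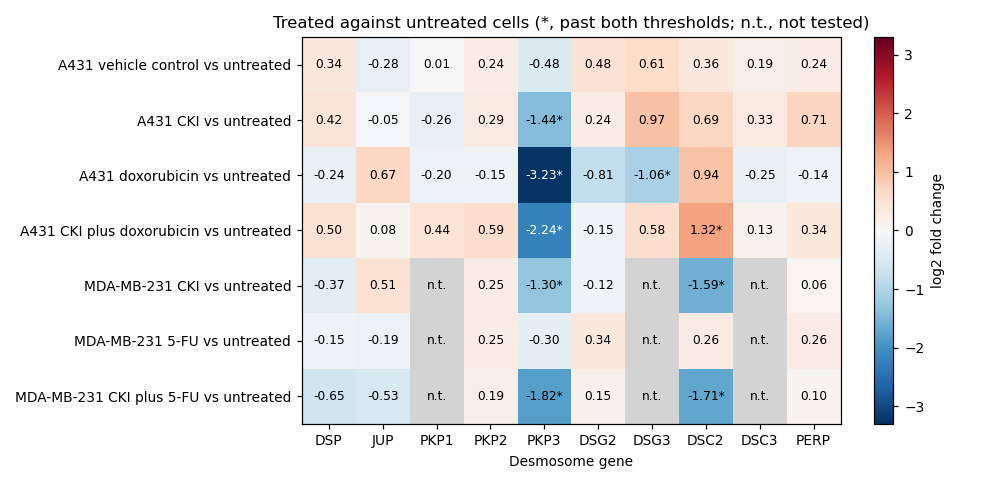
Log2 fold change of each desmosome gene (columns) in the treated against the untreated group of the same line (rows). Red is higher and blue lower in the treated group, an asterisk marks values past both thresholds, and grey cells marked n.t. were not tested. PKP3 is past both thresholds in 5 of the 7 rows, always lower, and DSC2 is higher in CKI plus doxorubicin and lower in both MDA-MB-231 groups with CKI.

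With CKI plus doxorubicin against untreated A431, DSC2 rose and PKP3 fell, where 21.7% of all genes rose and 13.8% fell. Counting the adjusted p-value only 9 of 10 differed, beside 79.2% of all genes. DSC2 had 119, 115 and 115 CPM, the highest of any group, with a log2 fold change of 1.32 ± 0.07 (adjusted p = 2.7e-14) and of 0.96 against the vehicle control. PKP3 had 106, 94.7 and 94.3 CPM, at -2.24 ± 0.12 (adjusted p = 8e-14). PKP2 at 0.59 ± 0.06, DSG3 at 0.58 ± 0.07, DSP at 0.50 ± 0.06 and PKP1 at 0.44 ± 0.06 lay higher than in untreated cells, and JUP, at 0.08 ± 0.11, was not past the test (adjusted p = 0.48). Against the vehicle control DSG3 was at -0.034 (adjusted p = 0.66). JUP passed the adjusted p-value at 0.36 against the vehicle control (0.004) and at 0.40 with GC and length offsets (1.1e-06). In the same comparison 5 of 10 tight junction genes rose and none fell, and 5 of 11 plakins and hemidesmosome genes fell and none rose. Of 6 other desmosomal genes tested 3 rose and 1 fell, of 11 adherens junction genes 3 and 1, of 15 transcription factors 3 and 1, and of 8 filament partners 2 and 1. DSG1 had 49, 34 and 50 counts.

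With CKI added to doxorubicin, DSG3 was higher than with doxorubicin alone. Its 195, 181 and 197 CPM lay far over the 54.5 to 68.5 CPM of doxorubicin alone, with a log2 fold change of 1.64 ± 0.07 (adjusted p = 1.1e-14). It was the only member past both thresholds, where 6.89% of all genes were higher and 8.03% lower. All 10 differed by the adjusted p-value alone, beside 63.6% of all genes, 9 with a higher level and JUP with a lower one. PKP3 was at 0.98 ± 0.12. It passed the limit at 1.21 with GC and length offsets, and at 1.00 to 1.02 without doxorubicin replicate 3 or without replicate 2 or 3 of CKI plus doxorubicin. DSP was at 0.75 ± 0.06, PKP2 at 0.74 ± 0.06, DSG2 at 0.65 ± 0.06, PKP1 at 0.64 ± 0.06 and JUP at -0.59 ± 0.11. No group held vehicle with doxorubicin, so that an effect of the vehicle could not be told apart here. For DSG3 the vehicle control alone was at 0.61 against untreated cells.

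Adding doxorubicin to CKI changed no member past both thresholds in edgeR or in DESeq2, where 16.6% of all genes were higher and 9.06% lower. By the adjusted p-value alone 8 of 10 differed, beside 73.3% of all genes. At an unadjusted p-value under 0.05 it was also 8 of 10, beside 11909 of 15881 genes. The largest values were -0.80 ± 0.12 for PKP3, 0.70 ± 0.06 for PKP1 and 0.63 ± 0.06 for DSC2. DSP, at 0.08 ± 0.06, and JUP, at 0.14 ± 0.11, were not past the test.

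Whether CKI gave the same difference with and without doxorubicin was tested by an interaction, which shares its 12 libraries with the comparisons above. PKP3 passed both thresholds with a positive value, where 8.56% of all genes were higher and 10.9% lower. Without doxorubicin the mean PKP3 level went from 465 to 172 CPM with CKI, and with doxorubicin it went from 49.7 to 98.4 CPM. The interaction was 2.42 ± 0.17 on the log2 scale (adjusted p = 4.9e-11), and 1.94 when vehicle libraries served as the control. On the adjusted p-value alone 9 of 10 members passed, beside 57.4% of all genes. PKP1 was at 0.90 ± 0.08 (adjusted p = 1.6e-09), with 290 and 243 CPM without doxorubicin and 252 and 393 CPM with it. DSG3 was at 0.67 ± 0.10 and JUP at -0.53 ± 0.15. PLEC, the plakin that links filaments to hemidesmosomes, had an interaction of 2.5 ± 0.18 (adjusted p = 9.2e-11), 3 of 11 plakins and hemidesmosome genes were higher and none lower, and 3 of 15 transcription factors were lower.

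**Figure D4:**
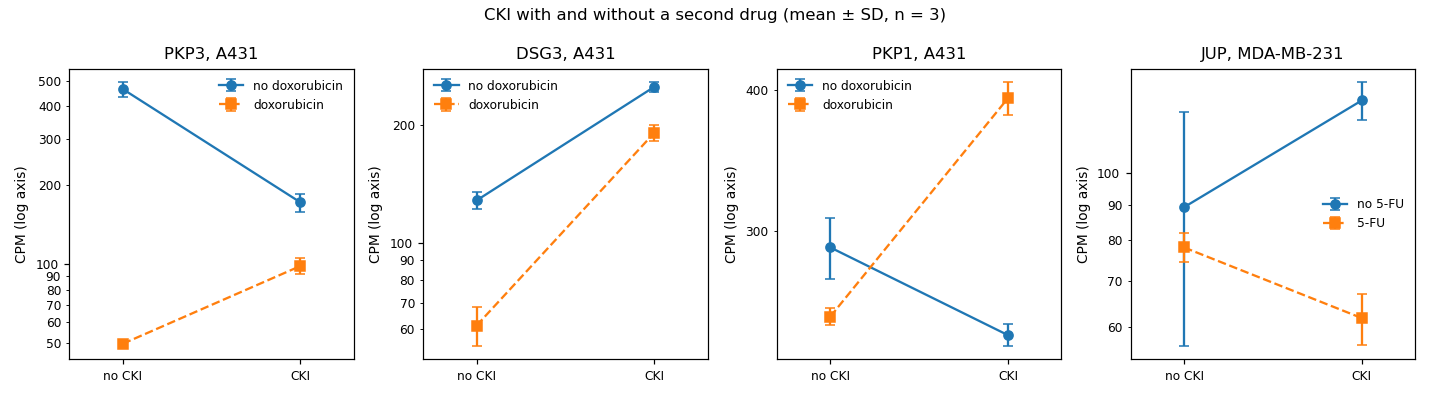
Mean level and SD of 3 libraries, in CPM on log axes of different range, without and with CKI, for PKP3, DSG3 and PKP1 in A431 and JUP in MDA-MB-231. Circles with solid lines are groups without the second drug and squares with dashed lines are groups with it. The lines for PKP3 go down from 465 to 172 and up from 49.7 to 98.4, and the lines for PKP1 cross.

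In MDA-MB-231, DSC2 and PKP3 fell with CKI alone and no member rose, where 3.76% of 13999 genes rose and 2.21% fell. This line had no vehicle control group, so that an effect of a vehicle could not be told apart from that of CKI. Without the limit on size 4 of the 7 tested members differed, beside 36.2% of all genes. DSC2 had 3.21, 3.10 and 3.29 CPM under CKI against 9.11, 10.4 and 9.33 CPM in untreated cells, a log2 fold change of -1.59 ± 0.11 (adjusted p = 1.1e-06). PKP3 had 14.0, 17.0 and 16.6 CPM against 23.5, 47.4 and 46.2 CPM, at -1.30 ± 0.22 (adjusted p = 6.3e-04). In neither gene did the groups overlap, as in 45.1% of all genes, and the fold changes were -1.62 and -1.56 without untreated replicate 1. DSP had 182 to 197 CPM against 207 to 267 CPM, at -0.37 ± 0.09 (adjusted p = 0.0055), and PKP2 was at 0.25 ± 0.07 (adjusted p = 0.016). JUP at 0.51 ± 0.21 (adjusted p = 0.076), DSG2 at -0.12 ± 0.06 and PERP at 0.06 ± 0.09 were not past the test. Without untreated replicate 1, which stood apart, JUP at 0.23 (0.0026) and PERP at 0.19 (0.0035) also passed the adjusted p-value. The share of all genes past it in that fit is not given here. JUP also passed with GC and length offsets, at 0.45 (0.0019). VIM, the filament partner of mesenchymal cells, fell from 1760 to 861 CPM (log2 fold change -1.03 ± 0.08, adjusted p = 1.4e-06), and CGN (cingulin) rose from 5.01 to 19.5 CPM. Of 10 tight junction genes tested 2 rose, of 11 plakins and hemidesmosome genes 1 rose, and of 10 adherens junction genes 1 rose. Of 11 transcription factors 1 rose and 1 fell, and of 6 filament partners 1 rose and 1 fell. The adherens junction gene was CDH2 (N-cadherin), from 0.485 to 2.14 CPM, and the factor that fell was SNAI1, from 8.81 to 3.9 CPM. Mean levels in untreated and CKI libraries were 1.83 and 0.934 CPM for CDH1, 14.9 and 8.48 CPM for EPCAM, and 65.9 and 61.2 CPM for ZEB1.

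5-FU alone changed no desmosome gene past both thresholds in edgeR or in DESeq2, where 6.01% of all genes rose and 7.31% fell. With no limit on fold change 4 of 7 differed, beside 57.1% of all genes. At an unadjusted p-value under 0.05 it was also 4 of 7, beside 8636 of 13999 genes. The 4 members were DSG2 at 0.34 ± 0.06, PERP at 0.26 ± 0.09, DSC2 at 0.26 ± 0.10 and PKP2 at 0.25 ± 0.07. PKP3 had 28.1 to 35.3 CPM and JUP 75.7 to 82.5 CPM, each between untreated replicate 1 and the other two. Without that replicate PKP3 at -0.56 (1.4e-06), JUP at -0.47 (2.3e-07) and DSP at -0.25 (1e-04) also passed the adjusted p-value, and DSC2 was lost (0.081). The share of all genes past it in that fit is not given here. In this comparison 4 of 11 plakins and hemidesmosome genes fell and 1 rose, with ITGA6 from 560 to 243 CPM, and of 6 filament partners 2 rose and 1 fell.

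With CKI plus 5-FU against untreated MDA-MB-231, DSC2 and PKP3 fell again, where 4.29% of all genes rose and 4.76% fell. This comparison and that of CKI alone share the untreated libraries. Counting the adjusted p-value only 5 of 7 differed, beside 49.7% of all genes. Without untreated replicate 1 JUP, at -0.81, and PERP, at 0.23, also passed it, and PKP2 was lost. The share of all genes past it in that fit is not given here. DSC2 had 2.66, 2.98 and 3.15 CPM, at -1.71 ± 0.11 (adjusted p = 3e-07), and PKP3 had 11.1, 9.95 and 12.2 CPM, at -1.82 ± 0.22 (adjusted p = 3.8e-05). DSP had 148 to 158 CPM, its lowest in the line, at -0.65 ± 0.09 (adjusted p = 6.8e-05). Of 11 plakins and hemidesmosome genes 1 rose and 2 fell, of 6 filament partners 1 rose and 2 fell, and VIM went to 734 CPM.

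Against 5-FU alone, the same 2 genes were lower with CKI added and none was higher. Over all genes, 5.26% were higher and 4.51% lower. DSC2 went from 11.5 ± 1.06 to 2.93 ± 0.25 CPM, a log2 fold change of -1.97 ± 0.11 (adjusted p = 1e-07), and PKP3 from 31.7 ± 3.59 to 11.1 ± 1.12 CPM, at -1.51 ± 0.22 (adjusted p = 1.5e-04). By the adjusted p-value alone 4 of 7 differed, beside 50.4% of all genes, the other two being DSP at -0.50 ± 0.09 and DSG2 at -0.19 ± 0.06.

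Adding 5-FU to CKI lowered JUP, where 1.26% of all genes were higher and 2.54% lower, and by the adjusted p-value alone 3 of 7 members differed, beside 42.1% of all genes. JUP had 122, 124 and 136 CPM under CKI and 62.9, 56.2 and 66.4 CPM under both drugs, without overlap, a log2 fold change of -1.04 ± 0.21 (adjusted p = 0.0023). This comparison went with GC content over all genes (Spearman rho of -0.52), and JUP was at -0.73 with GC and length offsets. It was also within the limit without CKI replicate 3, at -0.99, or without CKI plus 5-FU replicate 2, at -0.98.

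The interaction of CKI and 5-FU passed both thresholds for no member in edgeR or in DESeq2, where 3.04% of all genes were higher and 3.81% lower. On the adjusted p-value alone 2 of 7 passed, beside 31.4% of all genes. At an unadjusted p-value under 0.05 it was 3 of 7, beside 5989 of 13999 genes. The 2 were JUP at -0.85 ± 0.30 (adjusted p = 0.047) and PKP2 at -0.32 ± 0.10 (adjusted p = 0.031). JUP reached -1.03 without untreated replicate 3 and was at -0.57 without untreated replicate 1, and leaving out any 1 of the 9 treated libraries gave it an adjusted p-value of 0.068 to 0.10 in edgeR. For DSC2 the interaction was -0.39 ± 0.16 and for PKP3 -0.22 ± 0.31, and neither was past the test.

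The effect of CKI was then compared between the lines, over 12 libraries, untreated and CKI. DSC2 was the only member whose response differed past both thresholds, where 8.87% of all genes were higher and 9.62% lower in A431 than in MDA-MB-231. Its level went from 46.7 to 75.5 CPM in A431 and from 9.62 to 3.20 CPM in MDA-MB-231, and the interaction was 2.29 ± 0.12 on the log2 scale (adjusted p = 2e-08). It was 1.92 when vehicle libraries served as the A431 control and 1.995 with GC and length offsets. MDA-MB-231 had no vehicle control group, so that its side of the value of 1.92 was still set against untreated cells. Without the limit on size 4 of 10 passed, beside 47% of all genes. The others were DSP at 0.79 ± 0.12 (adjusted p = 9.4e-05), which lay higher with CKI in A431 and lower in MDA-MB-231, PERP at 0.66 ± 0.14 and DSG2 at 0.37 ± 0.10. With vehicle libraries as the A431 control, the signs of DSG2, PKP2 and PKP3 in this interaction turned, as given below. Against the vehicle control DSP was not past the test under CKI in A431, as given above. For PKP3, which fell with CKI in both lines, the interaction was -0.13 ± 0.27 (adjusted p = 0.73), and its sign turned without untreated MDA-MB-231 replicate 1, at 0.12, and without A431 CKI replicate 1, at 0.012. With GC and length offsets it was 0.38 ± 0.096 and passed the adjusted p-value (0.0032) in the opposite direction. DSC3, DSG3 and PKP1 had next to no counts in MDA-MB-231, so that no difference in response was detectable at this depth.

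The members did not move as a block. Over the 15 A431 libraries, which form 5 groups and share their depth range, 32 of the 45 pairs of members had a positive Pearson r of log2 CPM, from -0.90 to 0.97 with a median of 0.37. DSC3 and DSG3 had the highest r, at 0.97, DSG3 and DSP as well as DSP and PKP2 had 0.93, and DSG2 and JUP had the lowest, at -0.90. Over the 12 MDA-MB-231 libraries 12 of 21 pairs were positive, from -0.65 to 0.94 with a median of 0.20, with DSP and PKP3 at 0.94 and DSC2 and PKP3 at 0.90. DSC2 and PKP3 thus went together in MDA-MB-231, while r between them was -0.85 in A431. These are descriptions over libraries that share groups and are no test.

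The genes whose levels were most like those of DSP, by Pearson r of log2 CPM, were SEC23B (0.985), FGD6 (0.980), HCAR3 (0.977), IFNLR1 (0.971) and FHIP1A (0.970) over the 15 A431 libraries and 15881 genes. Over the 12 MDA-MB-231 libraries and 13999 genes they were EPAS1 (0.993), UBAP2L, SLC1A5 and B4GALT1 (each 0.979) and DMTN (0.974). No gene was in both lists.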

How the data were processed

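Total RNA of A431 and MDA-MB-231 cells was sequenced in 27 unstranded paired-end libraries. The authors deposited whole-number read counts for each gene, made from reads trimmed with Trim Galore 0.3.7 and aligned to hg19 with STAR 2.5.3a, per the submitters' processing notes. The counting tool and annotation are not given in the sources used here, so that overlapping and antisense genes are uncertain. DSG2 and DSP share exon bases with antisense genes, and DSC2 and PKP2 with genes on the same strand.

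Groups came from the labels. Of 24566 rows, 24422 matched a RefSeq symbol, and positions, lengths and GC content came from GENCODE on GRCh37. Counts were tested with edgeR 4.0.16 in R 4.3.3 (filterByExpr, TMM, quasi-likelihood), with 5 A431 groups in 1 fit, 4 MDA-MB-231 groups in another, and the untreated and CKI libraries of the 2 lines in another, over 15 comparisons, with p-values adjusted over all genes of a comparison. The limits were those of the paper's methods, an adjusted p-value of 0.05 and a log2 fold change of 1. Log2 CPM used a prior count of 2. Fits were first tested on simulated counts. Replicates differed by more than sampling noise in all pairs. Between-gene pairs are given with no test.

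The text names all members, up to 3 genes of smallest adjusted p-value per list of related genes, cell type markers, and the 5 genes most like DSP. PECAM1 had no row of its own and was left out of the markers. The members and lists were chosen with earlier results of these data known. Alternatives were DESeq2 1.42.0, RLE factors, library size alone, no filter, at least 10 counts in every library, the compared groups alone, no limit on the fold change, vehicle libraries as the A431 control, the replicate number as a block, offsets for GC content and length (lowess span 0.3), both together, and leaving out each replicate. Levels were also computed with library size alone and with TMM over all 27 libraries. Libraries with the same number did not deviate together in every pair of any comparison. Counting intervals cover counting error only.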

Additional observations from a re-analysis of the deposited data

Results flagged for a closer look

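PKP3 was picked out because its response to CKI differed with doxorubicin, by a test of the difference itself. The interaction of CKI and doxorubicin in A431 was 2.42 ± 0.17 on the log2 scale (edgeR, adjusted p = 4.9e-11). All 3 libraries with CKI alone lay under all 3 untreated libraries, and all 3 libraries with both drugs lay over all 3 with doxorubicin alone. In these comparisons 70.7% and 71.5% of all genes had no overlap either. In the interaction 8.56% of all genes were higher and 10.9% lower. The value ran from 2.36 to 2.49 over the fits that left out 1 library, and was 1.94 with the vehicle control and 2.35 with GC and length offsets.

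DSC2 was picked out because its response to CKI differed between the lines. The interaction of line and CKI was 2.29 ± 0.12 on the log2 scale (edgeR, adjusted p = 2e-08), with a higher level under CKI in 3 of 3 A431 libraries and a lower level in 3 of 3 MDA-MB-231 libraries. CKI and untreated libraries did not overlap in 70.7% of all genes in A431 and 45.1% in MDA-MB-231. In the interaction 8.87% of all genes were higher and 9.62% lower. The value ran from 2.23 to 2.40 over the fits that left out 1 library. The causes of both were not tested.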

How the results depend on the processing

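Of 23 member values past both thresholds, 22 stayed so under DESeq2, under RLE factors and with GC and length offsets, 21 with library size alone, 23 without a filter, 19 of the 20 that could be refitted with at least 10 counts in every library, 21 of 22 with the compared groups alone, and 13 of 15 with the vehicle control. With the replicate block, which rests on numbers that pair no libraries, 23 of 23 stayed, the DSC2 interaction of line and CKI being 2.29. No value past both thresholds turned its sign. The cause of each change below was not tested unless the setting itself shows it.

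With no limit on size, 9 of 10 members passed for the vehicle control (0 with the limit), 9 for CKI, 10 for doxorubicin, 9 for both, 10 for CKI added to doxorubicin, 8 for doxorubicin added to CKI (0 with the limit) and 9 for their interaction in A431. The shares of all genes were, in the same order, 42.5%, 67%, 80.6%, 79.2%, 63.6%, 73.3% and 57.4%. In MDA-MB-231 4 passed for CKI, 4 for 5-FU (0 with the limit), 5 for both, 4 for CKI added to 5-FU, 3 for 5-FU added to CKI and 2 for their interaction, and 4 for the interaction of line and CKI. Here the shares of all genes were, in the same order, 36.2%, 57.1%, 49.7%, 50.4%, 42.1%, 31.4% and 47%.

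The count for CKI in A431 was 2 with library size alone, at least 10 counts in every library, or the compared groups alone (DSG3 was added), and 0 with the vehicle control. With the vehicle control it was 3 for doxorubicin (DSG2 was added), 1 for CKI plus doxorubicin (DSC2 was at 0.96) and 2 for the interaction (DSG3 at 1.28). For CKI added to doxorubicin it was 2 without a filter and with GC and length offsets, with or without the replicate block (PKP3 was added). For 5-FU added to CKI it was 0 with library size alone and with GC and length offsets, with or without the replicate block (JUP was lost). For 5-FU it was 1 without a filter, from genes with next to no counts. Between the lines it was 5 with at least 10 counts in every library, a filter that drops DSC3, DSG3 and PKP1.

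Signs turned as follows. The DSP difference between the lines was -0.014 under DESeq2 and RLE factors, -0.013 with the stricter filter, -0.040 with the compared groups alone, -0.064 with library size alone and -0.029 without a filter. PKP1 under vehicle was -0.008 under DESeq2 and RLE factors and -0.019 with the compared groups alone. With library size alone, JUP was 0.056 under CKI. Under doxorubicin DSC3 was 0.095, DSP 0.101, PKP1 0.143, PKP2 0.199 and PERP 0.20, and under both drugs DSG2 was 0.162. DSC3 was 0.005 against CKI alone and -0.090 in the interaction, and PKP2 was 0.010 for 5-FU added to CKI. With the stricter filter PKP2 was 0.020 and PERP 0.022 under doxorubicin and DSC3 -0.028 in the interaction. With GC and length offsets, under vehicle DSC3 was -0.094, PKP3 0.057 and JUP 0.038, JUP was 0.088 under CKI, DSC3 -0.080 under CKI plus doxorubicin, PERP -0.070 under CKI plus 5-FU and -0.183 for 5-FU added to CKI, PKP3 0.081 in the interaction of CKI and 5-FU, and PKP2 -0.150 and PKP3 0.381 (adjusted p = 0.0032, edgeR) in that of line and CKI. In the same order, the offsets with the replicate block gave -0.094, 0.056, 0.037, 0.090, -0.079, -0.069, -0.184, 0.080, -0.151 and 0.378. With the vehicle control, DSG2 was -0.24 and JUP 0.22 under CKI, DSC3 -0.068 and DSG3 -0.034 under both drugs, DSC2 0.040 and PERP 0.024 in the interaction of the drugs, and DSG2 -0.11, PKP2 -0.20 and PKP3 0.35 in that of line and CKI.

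Leaving out 1 library gave 1 to 2 members for CKI, 1 to 2 for doxorubicin, 1 to 2 for CKI added to doxorubicin, 0 to 1 for 5-FU added to CKI and 0 to 1 for the interaction of CKI and 5-FU. Signs turned for DSP between the lines (-0.046 to 0.133), JUP under CKI in A431 (-0.115 to 0.010), PERP under CKI in MDA-MB-231 (-0.023 to 0.192), PKP1 under vehicle (-0.016 to 0.069), PKP2 and PKP3 in the interaction of line and CKI (-0.024 to 0.173 and -0.293 to 0.122) and PKP3 in that of CKI and 5-FU (-0.379 to 0.043). Of 86 mean levels, 36 stayed within 1 SD with library size alone, at 0.896 to 1.14 times the level given, and 69 with TMM over all libraries. Depth limits what can be said of DSC3, DSG3 and PKP1 in MDA-MB-231.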
